A study of Mus musculus with 8 samples.

Results

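The 10 core circadian clock genes *Arntl*, *Clock*, *Per1*, *Per2*, *Per3*, *Cry1*, *Cry2*, *Nr1d1*, *Nr1d2* and *Dbp* were followed in mouse prostate with and without *Olfm4*. They were taken by symbol, as every probe set annotated to one of them alone, which gave 23 probe sets among 45037 and 10 genes among 18193. A probe set is the group of short probes on the array that reads one transcript region. The genes were chosen on the basis of these same arrays, in which *Cry1* was higher in the knockout, so the differences between genotypes given here for the 10 genes are a description; where a count past a limma threshold is given for them, it is for scale and supports nothing. Whole-prostate RNA came from 4 *Olfm4*-knockout mice, which lack olfactomedin 4, a secreted glycoprotein, and from 4 wild-type mice; the strain label of both genotypes is 50% 129/SV and 50% Black Swiss of the National Institutes of Health. All mice were 3 months old, with no treatment named, and were measured on 1 array each, called KO1 to KO4 and WT1 to WT4. The titles place KO3, KO4, WT1 and WT4 on array day 1 and KO1, KO2, WT2 and WT3 on array day 2, so each day holds 2 arrays of either genotype. None of the sources used here gives the hour at which each prostate was taken, and no clock time was assigned to any array.

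The mammalian clock is a loop of transcription factors that runs in nearly every cell, the prostate included. ARNTL (BMAL1) and CLOCK bind E-boxes and switch on the *Per* and *Cry* genes, whose proteins return to the nucleus and silence ARNTL and CLOCK, and *Nr1d1*, *Nr1d2* and *Dbp* are switched on by the same pair. NR1D1 and NR1D2 (REV-ERB alpha and beta) repress *Arntl* and *Cry1* through ROR response elements, and DBP acts on D-boxes such as those of *Per3*. In mouse peripheral tissues *Arntl* and *Npas2* are known to peak about opposite to *Dbp*, *Nr1d1* and *Per3*, with *Cry1* later in the cycle than the other repressors, and a whole-tissue sample therefore carries a snapshot of the phase at which it was taken.

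The stretches of promoter in which these elements were found are printed here because the same elements define the branches of the loop by which the values are ordered. Windows of 250 bases before to 50 after a gene's start, from RefSeq on GRCm38.p6, were at hand for 9 of the 10 genes (13 windows, none for *Per2*). Both strands were searched for the E-box (CACGTG), and for its variant the E-prime box, spelled CACGTT or, when read from the opposite strand, AACGTG. The D-box (TTATGTAA) and the ROR response element were searched in the same way, and 6 genes held at least 1 of the elements, none of which overlapped another. Capitals mark the elements, and each sequence runs 5′ to 3′ on the strand of its gene. *Cry1* lies on the minus strand at chr10:85185085-85185154 and holds an E-prime box and an E-box, *Per1* on the plus strand at chr11:69098759-69098818 holds an E-box, and *Per3* on the minus strand at chr4:151044806-151044885 holds a pair of D-boxes. *Nr1d1* on the minus strand at chr11:98775378-98775437 and *Cry2* on the minus strand at chr2:92434200-92434259 each hold an E-prime box, and *Arntl* on the plus strand at chr7:113207525-113207554 holds a ROR response element just past its start.
Cry1: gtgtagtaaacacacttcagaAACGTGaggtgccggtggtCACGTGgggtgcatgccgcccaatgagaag
Per1: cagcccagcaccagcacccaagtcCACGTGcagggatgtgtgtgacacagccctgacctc
Per3: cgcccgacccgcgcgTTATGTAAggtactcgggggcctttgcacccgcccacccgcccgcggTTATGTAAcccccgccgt
Nr1d1: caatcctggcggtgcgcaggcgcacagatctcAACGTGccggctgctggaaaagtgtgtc
Cry2: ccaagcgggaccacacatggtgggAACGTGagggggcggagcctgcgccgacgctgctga
Arntl: tagggaaggcagAAAGTAGGTCAgggacgg
Of all 32851 windows of this length, 7.15% held the E-box, 4.68% the E-prime box, 0.938% the D-box and 0.384% the ROR response element. A match is a description of the letters and not evidence that a factor binds there.

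Values are log2 RMA values as deposited, in which 1 unit is a doubling. Array medians lay between 6.03 and 6.09, and correlations between arrays between 0.983 and 0.996. *Olfm4* itself was at 3.09, 3.00, 3.25 and 3.09 in KO1 to KO4, against 10.32, 10.23, 10.74 and 10.65 in WT1 to WT4, so the targeted gene matched the genotype label of every array. The prostate label was met as well, since the 5 measured luminal epithelial markers (*Krt8*, *Krt18*, *Pbsn*, *Hoxb13* and *Cd24a*) averaged 13.77 to 13.85 in the knockout and 13.78 to 13.83 in the wild type. A pair of arrays stood apart: the 6 measured seminal vesicle markers averaged 13.81 on KO1 and 14.15 on WT1, against 9.04 to 10.04 on the other knockout arrays and 7.88 to 9.65 on the other wild-type arrays, and the 2 measured adipose markers averaged 11.47 on KO1 and 12.07 on WT1. Values without KO1 and WT1 are given for the genotype differences of the 10 genes, by brightest probe set, and for the phase score. They keep KO3 and are not given for the other results. In whole tissue, fewer cells of a type and less RNA per cell cannot be told apart.

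Among the 10 genes, each read by its brightest probe set, the knockout mean was the higher one for 3 and the lower one for 7. The 3 were the activators *Arntl* and *Clock* and the repressor *Cry1*, and the 7 were the 3 *Per* genes, *Cry2*, *Nr1d1*, *Nr1d2* and *Dbp*. The median size of the difference was 0.44 log2 units over the 10 genes, against 0.11 over all 18193 genes. The median difference with its sign was -0.21 over the 10 genes, against -0.01 over all genes. Knockout and wild-type arrays did not overlap for 7 of the 23 probe sets, 4 higher and 3 lower in the knockout, beside 8.72% of all probe sets. In limma with genotype and array day as terms, 1 of the 23 probe sets, that of *Cry1*, had an adjusted p under 0.05, where 0.111% of all probe sets did. It was past that threshold in 3 of the 8 fits that leave out 1 array and not without KO2, KO3, WT2, WT3 or WT4, and the count over all probe sets was 50 with every array and 17 to 43 in those fits. By gene, 1 of 10 was called, beside 0.170% of all genes, and 7 of 10 had an unadjusted p under 0.05, beside 14.8% of all genes. As *Cry1* was the reason for the choice, these counts are given for scale only.

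**Figure D1:**
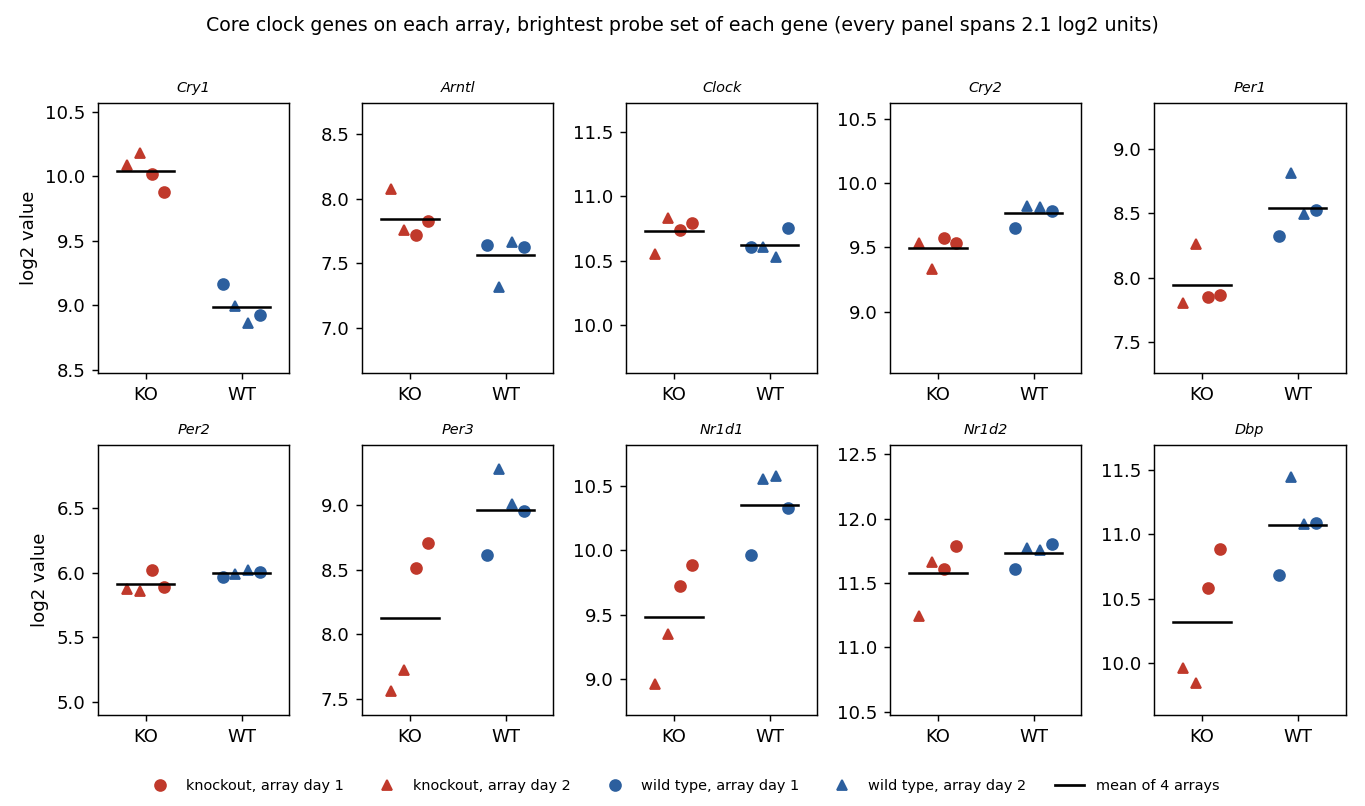
Log2 values (vertical axis, every panel spanning the same 2.1 units) of the 10 core clock genes on each array, knockout (KO, red) left and wild type (WT, blue) right, circles for array day 1 and triangles for array day 2, with the mean of 4 arrays as a line. The groups are widest apart for *Cry1*, while *Per3*, *Nr1d1* and *Dbp* have their 2 lowest values on the knockout arrays of day 2.

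*Arntl*, the partner of CLOCK in the activating pair, was at 8.08, 7.76, 7.72 and 7.83 in KO1 to KO4, against 7.64, 7.31, 7.66 and 7.63 in WT1 to WT4. All 4 knockout arrays were above all 4 wild-type arrays, with a gap of 0.055 between the nearest, and KO1 was the highest array and WT2 the lowest. The difference was 0.28 log2 units (SE 0.12, 95% confidence interval 0.01 to 0.56), and it was 0.21 without KO1 and WT1 and 0.18 without WT2. The dim second probe set of *Arntl* differed by 0.03 at a mean of 3.39.

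*Clock*, the other activator, was read differently by its probe sets. The brightest was at 10.55, 10.83, 10.74 and 10.80 in KO1 to KO4, against 10.61, 10.61, 10.53 and 10.76 in WT1 to WT4. These groups overlapped, and the difference of 0.10 (SE 0.08) was within the spread between mice. It was 0.04 without KO2, 0.15 without KO1 and 0.14 without KO1 and WT1. A second probe set, 1418660_at, was at 9.24, 9.27, 9.20 and 9.27 in the knockout, against 8.41, 8.27, 8.91 and 8.03 in the wild type, and it did not overlap between genotypes. Its 4 knockout arrays lay within 0.072 of each other and its wild-type arrays within 0.88, and the difference was 0.84 (SE 0.16, interval 0.46 to 1.22). Another, 1435775_at, was likewise higher in every knockout array, by 0.53 (SE 0.14), and the last, at a mean of 3.49, differed by 0.13. The probe sets of *Clock* thus disagreed in size, from 0.10 to 0.84, and which regions of the transcript they read was not examined.

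*Cry1*, which encodes a repressor of ARNTL and CLOCK, was at 10.09, 10.18, 10.02 and 9.88 in KO1 to KO4, against 9.16, 8.99, 8.86 and 8.92 in WT1 to WT4. The lowest knockout array was 0.72 log2 units above the highest wild-type array, while the arrays of either genotype lay within 0.30 of each other. The means were 10.04 ± 0.13 in the knockout and 8.98 ± 0.13 in the wild type (SD, n = 4 each). The difference was 1.06 (SE 0.10, interval 0.83 to 1.28), or 2.08-fold, and amounted to 0.91 on day 1 and 1.21 on day 2. It was 1.14 without KO1 and WT1. *Cry1* has a single probe set in the table used, so no second reading of it could be set beside this one.

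*Cry2*, its paralog, went the other way. It was at 9.53, 9.33, 9.58 and 9.53 in KO1 to KO4, against 9.65, 9.82, 9.81 and 9.78 in WT1 to WT4. Every knockout array was below every wild-type array by at least 0.074, and the difference was -0.27 (SE 0.08, interval -0.46 to -0.08). Without KO1 and WT1 it was -0.36.

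*Per1*, a repressor that also answers to glucocorticoids and other acute signals, was at 7.80, 8.26, 7.85 and 7.86 in KO1 to KO4, against 8.33, 8.81, 8.50 and 8.52 in WT1 to WT4. The groups did not overlap, though KO2 came within 0.069 of WT1. The difference was -0.60 (SE 0.12, interval -0.88 to -0.32), with wild type 1.51-fold above knockout. It was similar on both days, at -0.57 on day 1 and -0.62 on day 2, and it was -0.53 without KO1 and WT1.

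*Per2*, the repressor that turns over with PER1, was flat on its brightest probe set, at 5.86 to 6.03 in the knockout and 5.97 to 6.02 in the wild type. The difference was -0.08 (SE 0.06), and it was -0.09 without KO1 and WT1. The probe set 1417602_at gave 4.35, 4.70, 6.12 and 5.66 in KO1 to KO4, against 5.76, 6.15, 5.92 and 5.71 in WT1 to WT4. The low readings were those of KO1 and KO2, both of array day 2, and KO3 and KO4 lay within or near the wild-type range. Its difference was -0.68 (SE 0.33), and the remaining probe set differed by 0.02. The probe sets of *Per2* therefore disagreed too, and all had means under 6.

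*Per3*, the *Per* gene with the D-boxes shown above, was at 7.56, 7.72, 8.51 and 8.71 in KO1 to KO4, against 8.62, 9.28, 9.01 and 8.96 in WT1 to WT4. KO1 and KO2 were the lowest arrays, KO4 was above WT1, and the difference was -0.84 (SE 0.27, interval -1.46 to -0.22). It was -0.88 without KO1 and WT1. The other 5 probe sets of *Per3* had means under 6 and differed by -0.11 to 0.06.

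*Nr1d1*, whose product represses *Arntl* and *Cry1*, was at 8.96, 9.35, 9.73 and 9.88 in KO1 to KO4, against 9.97, 10.56, 10.57 and 10.33 in WT1 to WT4. The groups did not overlap, but KO4 came within 0.083 of WT1. The difference was -0.87 (SE 0.23, interval -1.40 to -0.35), with wild type 1.83-fold above knockout, and it was likewise -0.87 without KO1 and WT1. *Nr1d2*, its paralog, was at 11.25, 11.67, 11.61 and 11.78 in the knockout, against 11.61, 11.77, 11.76 and 11.80 in the wild type. Its groups overlapped, KO1 alone lay clearly low, and the difference of -0.16 (SE 0.12) became -0.10 without KO1 and WT1 and -0.04 without KO1 alone. The dim second probe set of *Nr1d2* differed by -0.08 at a mean of 4.07, with overlapping groups.

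*Dbp*, a transcription factor driven directly by the clock and the gene most often read as its output, was at 9.96, 9.85, 10.58 and 10.89 in KO1 to KO4, against 10.69, 11.44, 11.08 and 11.09 in WT1 to WT4. KO1 and KO2 were the lowest arrays, and KO4 was above WT1. The difference was -0.75 (SE 0.25, interval -1.35 to -0.16), with wild type 1.69-fold above knockout, and it was -0.88 without KO1 and WT1. The name of this probe set marks probes that can match more than 1 transcript. The second probe set of *Dbp* gave the same order of groups, at 7.99, 7.61, 8.69 and 8.92 in the knockout and 8.74, 9.44, 9.22 and 9.04 in the wild type, and a difference of -0.81 (SE 0.29).

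**Figure D2:**
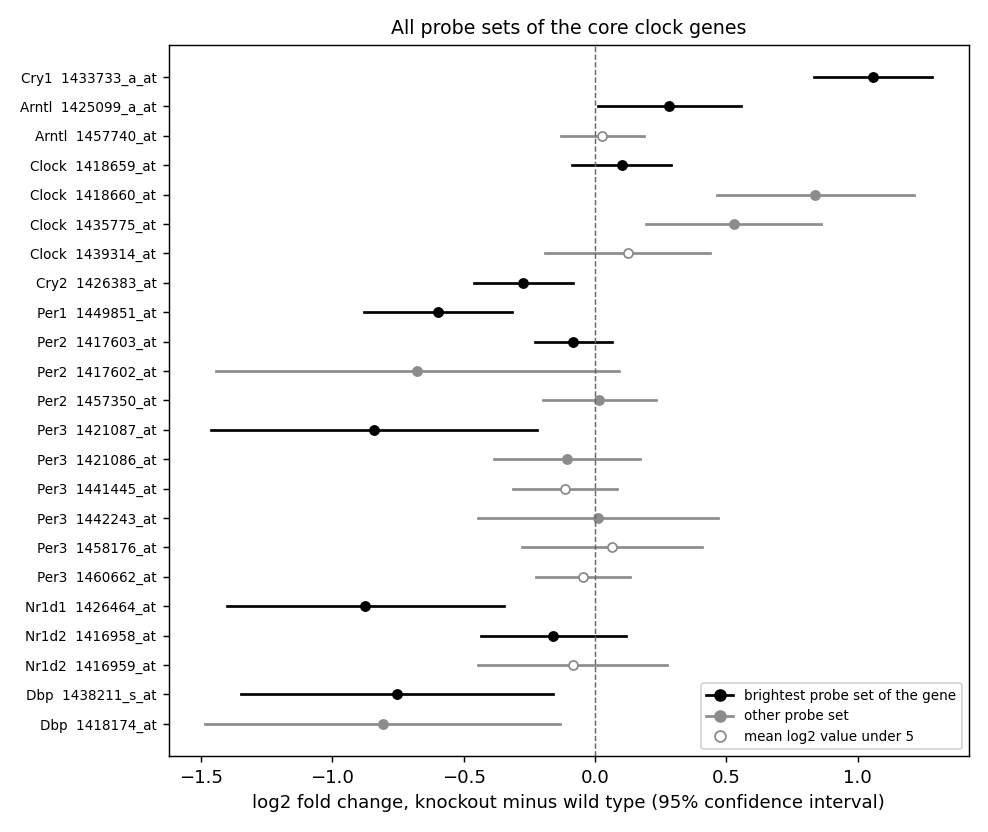
Differences between genotypes for all 23 probe sets, as log2 fold changes of knockout over wild type (horizontal axis; bars are 95% confidence intervals from limma with array day as a term), with the brightest probe set of each gene in black, other probe sets in grey and those with a mean under 5 as open circles. *Cry1* has the highest estimate, at 1.06, and the intervals of *Per3*, *Nr1d1* and *Dbp*, each over 1 unit wide, are broader than its own.

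The genes were chosen for the rise of *Cry1* between genotypes and not for a difference between the array days. A limma call depends on the spread among mice of one genotype and day. The spread of *Cry1* may therefore not be independent of the choice. Between the days, none of the 23 probe sets had an unadjusted p under 0.05 in limma, where 4.62% of all probe sets did and 0% had an adjusted p under 0.05. The lowest adjusted p among the 23 was 0.950. Residual SD after genotype and day was wide for *Per3* (0.45), *Dbp* (0.43) and *Nr1d1* (0.38), and these were exceeded by 4.96%, 5.56% and 7.31% of all probe sets. For *Cry1* it was 0.14, which 52.5% of all probe sets exceeded. In all, 5 of the 23 probe sets were among the 10% with the largest residual SD, and the median over the 10 genes was 0.18, against 0.14 over all genes.

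That spread had an order. In *Dbp* the genotypes differed by -0.15 on day 1 and by -1.35 on day 2, in *Per3* by -0.18 and by -1.51, and in *Nr1d1* by -0.34 and by -1.41. Within the knockout, day 2 minus day 1 was -0.83 in *Dbp*, -0.97 in *Per3* and -0.65 in *Nr1d1*. Within the wild type it was 0.37 in *Dbp*, 0.36 in *Per3* and 0.42 in *Nr1d1*. In *Cry1* and *Per1* the knockout values of day 2 minus day 1 were 0.19 and 0.18. The difference between the days was tested as an interaction of genotype and day in limma. It was -1.20 (SE 0.27) for *Dbp*, -1.33 (SE 0.23) for *Per3* and -1.06 (SE 0.25) for *Nr1d1*, and 0.30 (SE 0.17) for *Cry1* and -0.06 (SE 0.26) for *Per1*. An unadjusted p under 0.05 was reached by 5 of the 23 probe sets, 1 each of *Per2*, *Per3* and *Nr1d1* and both of *Dbp*, beside 4.90% of all probe sets. After adjustment over all probe sets none of the 23 passed, the lowest adjusted p being 0.890, and 0.00222% of all probe sets did. The interaction rests on 2 arrays for each genotype and day. KO1, which is rich in seminal vesicle transcripts, is on day 2 and WT1 is on day 1. KO3, the array with the highest skeletal muscle markers, is on day 1. The part of these transcripts in the interaction was not tested.

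The state of the loop on each array was summed up in a phase score, the mean of *Arntl* and *Clock* minus the mean of *Dbp*, *Nr1d1*, *Nr1d2* and *Per3*, each gene centred over the 8 arrays. *Cry1* is not in the score. It was 0.90, 0.66, 0.13 and 0.01 in KO1 to KO4, against -0.08, -0.79, -0.50 and -0.34 in WT1 to WT4. All knockout arrays were above all wild-type arrays, KO1 and KO2 stood highest, and KO4 and WT1 were neighbours, 0.087 apart. The means were 0.42 ± 0.42 in the knockout and -0.42 ± 0.30 in the wild type (SD, n = 4 each), a difference of 0.85, with 0.28 on day 1 and 1.42 on day 2. Without KO1 and WT1 it was 0.81. The order of KO4 and WT1 turned with the genes used, for *Arntl* minus *Dbp* alone gave -0.07 on KO4 and -0.05 on WT1. Over the 10 genes, not scaled, the first principal component held 87.3% of the variance and the next 7.03%. The first correlated with the score at r = 0.99 over the 8 arrays, and the 2 share 6 genes. *Cry1*, for which the genes were chosen, is in this component with a loading of 0.45, beside -0.45 for *Dbp*. The component thus includes the difference between genotypes for which the genes were chosen. These are descriptions of arrays by the genes themselves, and the hour of collection and genotype cannot be told apart in them.

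**Figure D3:**
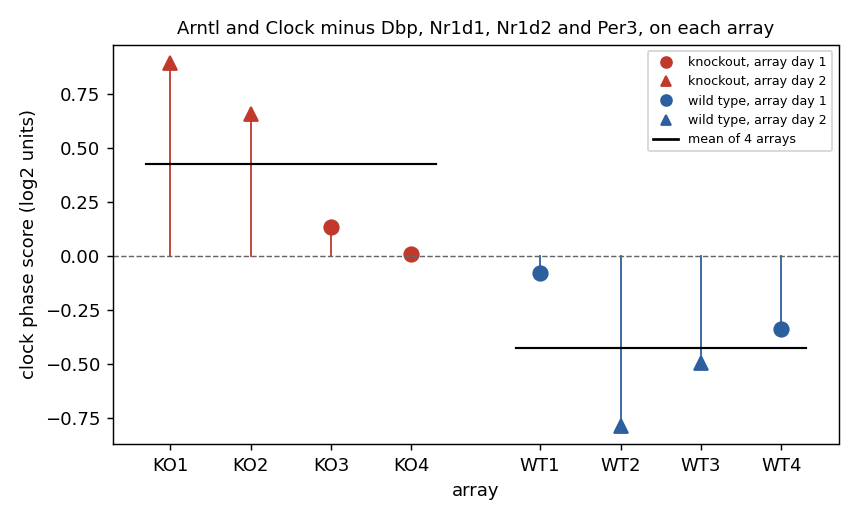
Clock phase score in log2 units (vertical axis) on each array, knockout left and wild type right, with circles for array day 1, triangles for array day 2 and lines for the means of 4 arrays. KO1 and KO2 are at 0.90 and 0.66, WT2 and WT3 at -0.79 and -0.50, and the arrays of day 1 lie between them.

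*Cry1*, which the score leaves out, was set beside it array by array. Inside the knockout the score ran from 0.01 to 0.90 while *Cry1* ran from 9.88 to 10.18, and inside the wild type it ran from -0.79 to -0.08 while *Cry1* ran from 8.86 to 9.16. KO4 was the lowest knockout array in both, and WT1 the highest wild-type array in both. The other ends did not match. The highest knockout array was KO1 in the score and KO2 in *Cry1*, and the lowest wild-type array was WT2 in the score and WT3 in *Cry1*. As *Cry1* falls into 1 cluster per genotype, no correlation over all arrays is given for it, and 4 arrays per cluster are too few for one inside a cluster. With the score added to limma as a term, the difference was 0.86 in *Cry1*, -0.42 in *Per1*, -0.14 in *Cry2* and -0.03 in *Per2*, none of which is in the score. In the genes of the score it was 0.00 for *Arntl*, 0.15 for *Clock*, -0.09 for *Nr1d1* and 0.13 each for *Dbp*, *Per3* and *Nr1d2*, the term being built from these genes. No core clock probe set was called in that fit (adjusted p = 0.581 for *Cry1*, limma). As the score did not overlap between genotypes, the fit cannot separate genotype from score. WT1 was the wild-type array closest to the knockout mean in 8 of the 10 genes. It is also one of the arrays rich in seminal vesicle and adipose transcripts, as is KO1, the array with the highest score, and the part of that tissue in their clock values was not tested.

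**Figure D4:**
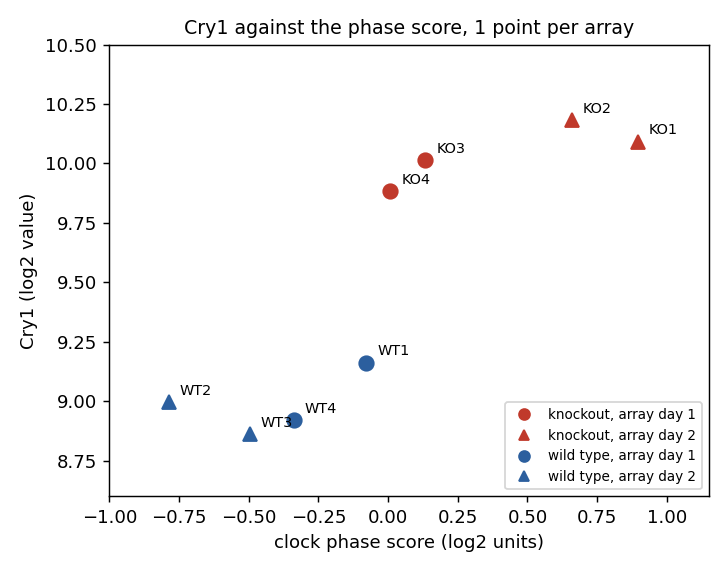
*Cry1* log2 value (vertical axis) against the clock phase score (horizontal axis, log2 units), 1 point per array, red for knockout and blue for wild type, circles for array day 1 and triangles for array day 2. KO4 is the lowest knockout array in both measures, and WT1 the highest wild-type array in both. The lowest wild-type array is WT2 in the score and WT3 in *Cry1*.

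Whether the genes moved together from mouse to mouse was asked by the correlation of each with *Arntl* over the 8 arrays, with exact permutation tests (2-sided) adjusted over the 9 genes. *Per1* had r = -0.85 (adjusted p = 0.0179, exact) and rho = -0.90 (adjusted p = 0.0411, exact), and r = -0.77 without KO1 and WT2, the arrays farthest from the median of *Arntl*. It was -0.85 on day 1 and -0.99 on day 2. *Nr1d1* had r = -0.82 (exact adjusted p = 0.0272) and rho = -0.79 (exact adjusted p = 0.0662), with -0.60 without KO1 and WT2, -0.59 on day 1 and -0.85 on day 2. *Dbp* had r = -0.76 (exact adjusted p = 0.0417) and rho = -0.76 (exact adjusted p = 0.0662), with -0.39 without KO1 and WT2, -0.12 on day 1 and -0.83 on day 2, so that its relation rests on those arrays. *Per3* rests on them too, with r = -0.80 (exact adjusted p = 0.0272), rho = -0.76 (exact adjusted p = 0.0662) and -0.45 without these arrays, -0.31 on day 1 and -0.87 on day 2. The others had r = 0.04 for *Clock*, -0.61 for *Per2*, -0.62 for *Cry2* and -0.71 for *Nr1d2*, the last being 0.08 without KO1 and WT2. Of these 8 genes, 4 passed by r and 1, *Per1*, by rho. The values of a single day rest on 2 arrays of either genotype, too few to serve as a check. All of these values include the difference between genotypes for which the genes were chosen. *Arntl*, *Per1* and *Nr1d1* did not overlap between genotypes, and the permutations over 8 arrays ignored genotype. Their p-values therefore cannot tell variation from mouse to mouse from that difference, also without KO1 and WT2. With the mean of each genotype subtracted and arrays permuted within genotype, an alternative added after the data were seen, r was -0.67 for *Per1*, -0.60 for *Nr1d1*, -0.60 for *Per3*, -0.51 for *Dbp* and 0.01 for *Cry1*. None of the 9 passed in that form, and the lowest adjusted p was 0.341 (exact permutation).

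Among 2039 genes with a mean of at least 6 and an SD over the arrays of at least 0.3, the pattern most like that of *Arntl* was that of *Tox*, with r = 0.96 over the 8 arrays. It was followed by *Ptk2b*, *Lox*, *Ccn5*, *Myocd*, *Arhgap20*, *Cyp4b1*, *Gria4*, *Prr5l* and *Trim29*, down to 0.87. None of these 10 was on the clock lists, but few of the 2039 were, so 10 genes would seldom hold one. At the other end stood *Abcc2* at -0.96, then *Sp100*, *Lnx1*, *Nkain1*, *Cyp4f13*, *E2f2*, *Vamp5*, *Irf7*, *Apom* and *Cemip*, up to -0.87. Of the clock genes among the 2039, *Npas2* was 14th from the top at 0.87. From the bottom *Per1* was 18th, *Nr1d1* 42nd, *Tef* 56th, *Per3* 57th and *Dbp* 105th. Of the others, *Cry1* aside, *Pfkfb3* was 196th from the top at 0.67. *Usp2* at 0.17, *Avpr1a* at -0.22 and *Bhlhe40* at -0.39 lay far from both ends. The arrays share their genotype and day in all of these, and the values are a description.

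The wider clock was read from 27 further genes, of which 25 had a probe set of their own: the paralogs, kinases, ubiquitin ligases and nuclear receptors of the loop and 7 of its rhythmic outputs. None of the 25 was called between genotypes (limma, lowest adjusted p = 0.217), beside 0.170% of all genes. At an unadjusted p under 0.05, 1 was higher and 3 were lower in the knockout, beside 14.8% of all genes in either direction. Their median difference was -0.05. The 1 higher gene was *Npas2*, which can take the place of CLOCK beside ARNTL, at 9.65, 9.42, 8.998 and 9.07 in KO1 to KO4, against 8.67, 8.31, 8.44 and 8.78 in WT1 to WT4. Its groups did not overlap, KO1 and KO2 were the highest arrays, and the difference was 0.73 (SE 0.17, adjusted p = 0.217 in limma), with 0.31 on day 1 and 1.16 on day 2. *Tef*, which like *Dbp* encodes a D-box activator, was at 9.99, 10.33, 10.72 and 10.84 in the knockout, against 10.88, 11.11, 11.09 and 11.05 in the wild type. KO1 and KO2 were again the extreme arrays, and the difference was -0.56 (SE 0.17, adjusted p = 0.275 in limma), with -0.18 on day 1 and -0.94 on day 2.

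*Nampt*, an output of the loop that makes a precursor of NAD, was at 9.31, 9.64, 9.61 and 9.71 in the knockout, against 9.95, 9.85, 9.90 and 9.93 in the wild type, without overlap and by -0.34 (SE 0.09, adjusted p = 0.237 in limma). *Ciart*, a repressor of ARNTL and CLOCK, differed by -0.23 (SE 0.09, adjusted p = 0.384), and *Csnk1d*, a kinase that marks PER proteins, by -0.13 (SE 0.06, adjusted p = 0.441). Neither passed the limma test. The D-box activator *Hlf* differed by -0.17 (adjusted p = 0.565 in limma), and *Nfil3*, which represses through the same element, by 0.24 (adjusted p = 0.589 in limma), both with overlapping groups. Between the array days, none of the 25 had an adjusted p under 0.05 in limma, and 2 had an unadjusted p under 0.05, beside 4.62% of all probe sets, *Timeless* (-0.27, day 2 minus day 1) and *Csnk1e* (-0.21), each with an adjusted p of 0.950. The output *Pfkfb3* stood at 12.05 on KO1, against 7.26 to 7.52 on the other knockout arrays. In the wild type it was at 8.38 on WT1, the next highest, and at 7.25 to 7.51 on the other arrays. KO1 and WT1 are the arrays rich in seminal vesicle and adipose transcripts, but those markers averaged higher on WT1 than on KO1. The part of that tissue in *Pfkfb3* was not tested.

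**Figure D5:**
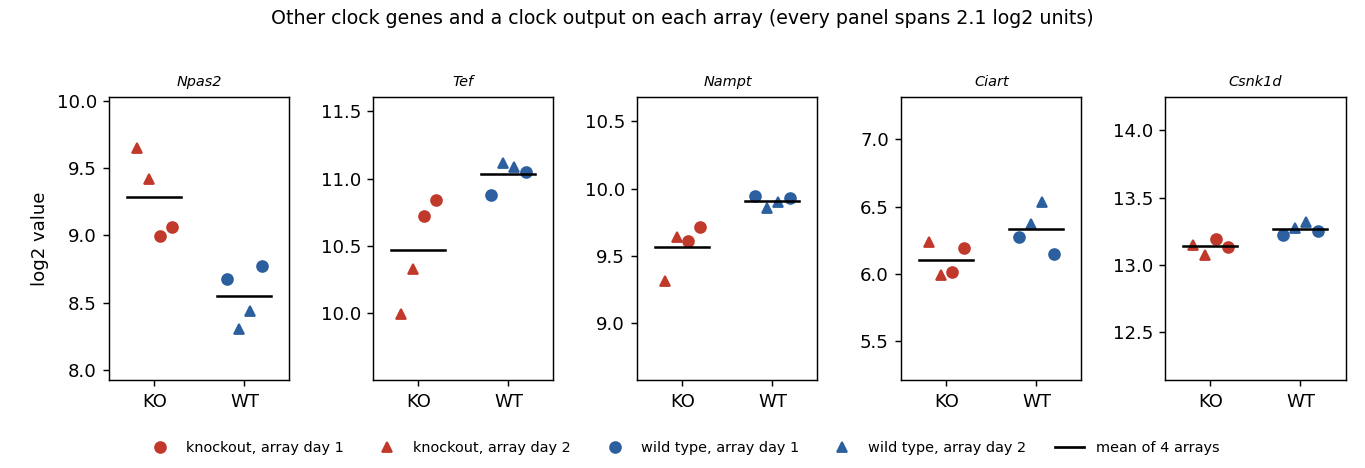
Log2 values (vertical axis, every panel spanning the same 2.1 units) of *Npas2*, *Tef*, *Nampt*, *Ciart* and *Csnk1d* on each array, knockout (KO, red) left and wild type (WT, blue) right, circles for array day 1 and triangles for array day 2, with the mean of 4 arrays as a line. *Npas2* is higher on all 4 knockout arrays and *Tef*, *Nampt* and *Csnk1d* are lower on all 4, with no adjusted p under 0.05.

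Acute signals that reach *Per1* without the clock were read from 8 glucocorticoid-responsive genes, *Per1* among them, and 8 immediate early genes. None of either list was called between genotypes (limma), where 0.170% of all genes were, so lists this short would seldom hold a called gene. Leaving *Per1* aside, the lowest adjusted p was 0.235 in the glucocorticoid list and 0.209 in the immediate early list. Of the 7 other glucocorticoid-responsive genes, *Klf9* was higher in all 4 knockout arrays, at 12.07, 12.39, 12.01 and 12.20, against 11.88, 11.79, 11.71 and 11.72 in the wild type, a difference of 0.39 (SE 0.10, adjusted p = 0.235). *Fkbp5*, a standard readout of the glucocorticoid receptor, differed by -0.22 (SE 0.32). In the immediate early list *Atf3* was lower on every knockout array than on any wild-type array, with a difference of -0.59 (SE 0.14, adjusted p = 0.209), and *Nr4a1* differed by -0.52 (SE 0.20, adjusted p = 0.343).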

How the data were processed

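Total RNA from whole prostate of 8 mice was hybridised by the authors to Affymetrix Mouse Genome arrays, 1 mouse per array. The methods name a Qiagen column kit and 5 mice, while the labels name Trizol and 4 arrays of either genotype were analysed. The deposited values are log2 expression values made by the authors with RMA (background correction, quantile normalization over arrays, summary per probe set), version not given in the sources used here. Quantile normalization removes any shift shared by all genes, and the summary compresses low values, so differences of dim probe sets are likely understated. No detection calls were used.

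From these log2 values, 64 control probe sets were left out and 45037 were fitted in limma (version 3.58.1, R version 4.3.3; lmFit followed by eBayes, genotype and array day as terms, 2-sided, Benjamini-Hochberg adjustment over all probe sets, threshold 0.05). The interaction of genotype and day was a separate fit. Of the probe sets, 34945 had 1 gene symbol, 932 several and 9160 none in the platform annotation; a gene was read by its brightest probe set, judged by the mean of all 8 arrays. All 10 genes were matched by symbol in RefSeq. The precision is limited by the number of arrays, 4 per genotype and 2 per genotype and day.

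The genes named are *Olfm4*, all probe sets of the 10 core clock genes, the 5 other clock genes or outputs with the smallest p for genotype and for day, the 2 with the smallest p of the glucocorticoid and of the immediate early list, and the genes most and least alike to *Arntl*. The genes most alike to *Cry1* also fell under the rule but are left out, as they would be ranked by the difference for which *Cry1* was chosen. *Hlf*, *Nfil3*, *Pfkfb3*, *Fkbp5*, *Usp2*, *Avpr1a* and *Bhlhe40* were named after their values were seen. The genes and lists were chosen with earlier results of these data known. The limma step was tested on simulated data. Alternatives were the fit without day, replicate number as a block, ANOVA as in the methods, other variance models, weights, normalizations and filters, each day alone, the phase score as a term, and leaving out arrays. Replicates are separate mice.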

Additional observations from a re-analysis of the deposited data

Results flagged for a closer look

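Of 68 groups of 4 arrays tested for an array far from the rest, 2 were flagged, and chance flags about 1 in 20 groups. In *Per1*, KO2 at 8.26 lay above the other knockout arrays, which were at 7.80 to 7.86. In *Arntl*, WT2 at 7.31 lay below the other wild-type arrays, which were at 7.63 to 7.66.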

How the results depend on the processing

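The difference in *Cry1*, a description here, was 0.91 on array day 1 alone, 1.21 on array day 2 alone, 0.86 with the phase score as a term and 1.00 to 1.14 with 1 array left out. The core clock probe sets called numbered 1, and 0 on day 1 alone, on day 2 alone and with the phase score as a term, and 0 to 1 with 1 array left out. Over all probe sets, 50 were called for genotype, against 20 with the replicate block, 24 with ANOVA, 4 on day 1 alone, 4 on day 2 alone, 7 with the phase score and 17 to 43 with 1 array left out. Array day gave 0 calls, and 0 to 1 with 1 array left out (1 without KO1 and 1 without WT4). The phase score differed by 0.85, by 2.38 with each gene divided by its SD, by 1.90 as the first principal component, and by 0.28 on day 1 alone and 1.42 on day 2 alone. The cause of these changes was not tested. The replicate numbers were not taken as pairs. Deviations of equal numbers correlated at 0.34, 0.17, 0.04 and -0.01, and 1 of 4 knockout arrays correlated best with its own number. This check is too small to show whether the samples were paired. With the replicate block the difference in *Cry1* was 1.06. With the mean of all probe sets, *Clock* differed by 0.40, *Per2* by -0.25 and *Per3* by -0.17. Dim probe sets, 6 of the 23 with a mean under 5, limit what could be seen for *Arntl* and *Nr1d2* beyond their brightest probe sets. *Clock* and *Per3* had dim probe sets too, but also further ones with means above 5. Those of *Clock* were at 8.82 and 8.85, and those of *Per3* at 5.39 and 5.79.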
